A study of Mus musculus with 20 samples.

Results

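Transporters of amino acids and monocarboxylates of the solute carrier (SLC) families 1, 3, 6, 7, 16, 36, 38 and 43 were examined in 3 cell types of pressure-overloaded mouse hearts. Members were taken by symbol, as all listed genes of these 8 families other than *Slc7a11*, and 45 of the 15015 genes listed in any table met the rule. Of these, 40 of 13929 genes were listed for endothelial cells (ECs), 41 of 13563 for fibroblasts (FBs) and 38 of 13038 for cardiomyocytes (CMs), and 34 members were listed in all 3 cell types. The *Slc16* family gave 11 members, *Slc38* 9, *Slc7* 8, *Slc6* 5, *Slc1* 4, *Slc36* and *Slc43* 3 each and *Slc3* 2.

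The data were bulk RNA-seq of 20 samples from wild-type (WT) mice and mice with a systemic, homozygous knockout of the long non-coding RNAs *Gadlor1* and *Gadlor2* (*Gadlor*-KO). ECs came as 4 samples per genotype, FBs and CMs as 3 per genotype. Every sample, WT included, was taken 2 weeks after transverse aortic constriction (TAC), which narrows the aorta and imposes pressure overload. No sham sample was analysed here, so the genotypes were compared under overload only. By the methods of the study, mice were 8 to 10 weeks old at TAC, and the mutant line goes back to 1 clone of embryonic stem cells (G4 line) in which a segment of chromosome 16 was removed by CRISPR-Cas9. ECs were selected with CD146 beads, FBs were collected with feeder removal beads from the EC flow-through, and CMs came from hearts perfused with enzymes on a Langendorff system. Values are log2 CPM, read counts scaled to a common library size on the log2 scale, for the highest transcript of each gene. The labels do not say that each sample came from a separate animal, so p-values reflect the spread among the samples at hand, which may be technical. In bulk samples, fewer cells of a type and less RNA per cell cannot be told apart.

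Monocarboxylate transporters of the SLC16 family carry lactate, pyruvate and ketone bodies together with protons, so that cells can release or take up the products of glycolysis, and some relatives carry aromatic amino acids, creatine or carnitine instead. Amino acids enter by several routes. SLC7 light chains pair with an SLC3 heavy chain and exchange one amino acid for another, SLC1 and SLC38 carriers are driven by sodium and supply glutamine and other small neutral amino acids, SLC36 carriers are driven by protons, and SLC6 carriers bring in taurine, creatine, glycine and proline. In the heart, lactate is a fuel of CMs, creatine buffers their ATP and taurine is among their most abundant free amino acids, while carriers on lysosomes report amino acids to the growth kinase mTORC1.

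Windows around the annotated start site (250 bases before to 50 after) were available from RefSeq on GRCm38.p6 for 31 of the 45 members, with 44 start sites. Both strands were searched for 4 motifs. GGGCGG is a box that SP and KLF factors bind, CACGTG is the palindromic E-box and TATAAA the TATA box. The amino acid response element was searched as TGATGNAAN. The box GGGCGG lay in 65.9% of the members' windows and in 35.7% of all 32851 windows of this length. The other motifs lay in 11.4% of the members' windows against 7.15% of all (CACGTG), 6.82% against 3.95% (TGATGNAAN) and 15.9% against 13.6% (TATAAA). Windows of 4 members that differed by genotype below are shown 5′ to 3′ on the strand of the gene, each as an example of another makeup, with the matches that it is shown for in capitals, on either strand. *Slc16a1*, the lactate carrier MCT1, at chr3:104638414-104638713 on the plus strand holds CACGTG once and GGGCGG once. *Slc38a2*, a sodium-driven carrier that is induced when amino acids run short, at chr15:96699679-96699978 on the minus strand, holds one GGGCGG, read here as CCGCCC. *Slc3a1*, the heavy chain rBAT, at chr17:85028097-85028396 on the plus strand, holds TATAAA upstream and again within TTTATAAA, where the matches on both strands overlap. *Slc7a7*, a light chain that exchanges cationic for neutral amino acids, has 5 listed start sites, and the window at chr14:54417895-54418194 on the minus strand holds TGATGNAAN at 2 places, in capitals, and one GGGCGG, left in lower case. A match is a run of letters only, and binding was not measured.
Slc16a1: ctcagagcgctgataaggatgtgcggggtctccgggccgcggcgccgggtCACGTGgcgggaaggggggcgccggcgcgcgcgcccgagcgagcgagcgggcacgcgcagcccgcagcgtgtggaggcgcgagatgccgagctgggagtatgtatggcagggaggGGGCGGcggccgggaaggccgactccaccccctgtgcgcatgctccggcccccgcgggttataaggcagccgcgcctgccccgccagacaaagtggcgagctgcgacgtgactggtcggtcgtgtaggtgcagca
Slc38a2: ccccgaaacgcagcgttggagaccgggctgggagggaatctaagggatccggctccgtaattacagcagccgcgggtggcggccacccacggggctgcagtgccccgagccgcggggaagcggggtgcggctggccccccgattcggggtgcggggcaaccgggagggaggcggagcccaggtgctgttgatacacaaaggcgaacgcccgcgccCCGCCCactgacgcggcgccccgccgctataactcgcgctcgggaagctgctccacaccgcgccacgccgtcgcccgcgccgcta
Slc3a1: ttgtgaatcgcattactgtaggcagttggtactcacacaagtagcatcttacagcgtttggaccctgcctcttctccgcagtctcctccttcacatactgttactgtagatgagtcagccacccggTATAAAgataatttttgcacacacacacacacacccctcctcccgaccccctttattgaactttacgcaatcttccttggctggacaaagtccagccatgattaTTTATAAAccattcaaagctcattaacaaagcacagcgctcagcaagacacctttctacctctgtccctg
Slc7a7: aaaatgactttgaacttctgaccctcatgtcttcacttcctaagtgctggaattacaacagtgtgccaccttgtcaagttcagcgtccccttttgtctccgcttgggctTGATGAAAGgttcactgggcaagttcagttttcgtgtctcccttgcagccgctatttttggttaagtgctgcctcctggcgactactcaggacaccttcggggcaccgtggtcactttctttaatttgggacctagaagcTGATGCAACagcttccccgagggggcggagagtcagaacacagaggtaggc

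The depth differed between cell types. Judged by the spacing of low values, effective library sizes, the totals behind the CPM, were 40.1 to 55.4 M in ECs, 15.04 to 59.8 M in FBs and 10.6 to 20.2 M in CMs. They can differ from the reads held. In FBs the CPM of all transcripts summed to 768242 in WT-283 and to 1513260 in WT-260, and not to a common total. Endothelial markers averaged 8.55 to 8.72 log2 CPM in the EC samples, fibroblast markers 8.31 to 9.64 in the FB samples and cardiomyocyte markers 10.5 to 10.6 in WT but 5.33 to 8.37 in *Gadlor*-KO CM samples. Thus the CM label holds for the WT samples, whereas the *Gadlor*-KO CM libraries stand apart from them. Among the WT CM samples, WT-CM6 stood apart as well, with correlations across genes of 0.81 and 0.82 with WT-CM1 and WT-CM2, which correlated at 0.97, and a mitochondrial share of 26.7% against 46.8% and 46.6%. In the EC samples, 10 pericyte and smooth muscle markers averaged 6.96 to 7.31 log2 CPM, and none differed by genotype. Their averages were 2.51 to 4.93 log2 CPM in FB and 3.33 to 5.46 in CM samples. EC values can thus include RNA of such cells, and its part was not tested. Mitochondrially encoded genes held 5.25% to 20.4% of the gene CPM in ECs, 3.81% to 73.6% in FBs and 26.7% to 46.8% in WT and 65.1% to 75.6% in *Gadlor*-KO CMs, with the highest FB value in WT-260. Y-linked genes summed to 32.7, 42.5 and 0.96 CPM in WT-260, WT-277 and WT-283 and to 37.4, 0.11 and 0.15 in KO-240, KO-241 and KO-242. In CMs their sum was 0.26, 45.8 and 4.61 CPM in WT-CM1, WT-CM2 and WT-CM6. It was 27.6, 0.50 and 20.8 CPM in KO-CM1, KO-CM2 and KO-CM3. The part of these genes was not tested in FBs and CMs.

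In WT cells, the highest member differed between the cell types, but the leading carriers were in part shared, and *Slc38a10* was among the 5 highest in all 3. The taurine carrier *Slc6a6* was the highest member of ECs, with 9.28 ± 0.12 log2 CPM (mean ± SD, n = 4), the purine nucleobase carrier *Slc43a3* that of FBs, with 7.31 ± 0.18 log2 CPM (n = 3), and the creatine carrier *Slc6a8* that of CMs, with 7.45 ± 0.39 log2 CPM (n = 3). Per kilobase of transcript, these lay at the 98.1, 97.4 and 95.8 percentile of the genes of their table. ECs further held *Slc43a3* (7.98 ± 0.06 log2 CPM), *Slc38a2* (7.61 ± 0.09) and *Slc38a10*, a little-studied SLC38 carrier (6.53 ± 0.06). In FBs, the glutamine carrier *Slc1a5* (6.93 ± 0.03 log2 CPM), *Slc38a10* (6.42 ± 0.55) and *Slc6a6* (6.16 ± 0.34) were also among the highest. In CMs these were *Slc16a1* (5.83 ± 0.97 log2 CPM), *Slc38a3*, a glutamine carrier of the SLC38 family (5.76 ± 0.31), *Slc38a2* (5.37 ± 1.32) and *Slc38a10* (5.28 ± 0.47).

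The tables were normalized separately, so the order of one gene across cell types is a description without a test. Among the 34 members listed in all 3 tables, the WT mean was highest in ECs for 15, in FBs for 15 and in CMs for 4, and lowest in CMs for 26. In 11, 12 and 3 of these leading cases every sample of the leading cell type lay above every sample of the next, as for *Slc6a6* in ECs over FBs and CMs (5.27 log2 CPM in CMs). *Slc16a1* ran in the order CMs, ECs, FBs with WT means of 5.83, 2.52 and 2.24 log2 CPM, and its values in ECs and FBs overlapped. *Slc6a8* had the same order with 7.45, 5.42 and 5.34 log2 CPM, again with ECs and FBs overlapping. *Slc7a8*, the light chain LAT2 for neutral amino acids, ran from FBs over ECs to CMs with 5.13, 2.13 and -0.31 log2 CPM, all apart. *Slc1a5* followed the same sequence with 6.93, 5.31 and 1.51 log2 CPM. The heavy chain *Slc3a2* lay at 6.17 in ECs, 5.69 in FBs and 4.16 log2 CPM in CMs, and its partner *Slc7a5*, the light chain LAT1, at 4.06, 3.35 and 1.80 log2 CPM, where the EC and FB samples overlapped. The lactate exporter MCT4 (*Slc16a3*) was highest in FBs with 3.74 log2 CPM, against 3.14 in ECs and 0.92 in CMs. Of the carriers of lysosomes, *Slc38a9*, an arginine sensor upstream of mTORC1, lay at 3.17, 2.76 and 2.18 log2 CPM in ECs, FBs and CMs with overlap between neighbours, and *Slc36a1* at 3.92, 4.37 and 2.79 log2 CPM, where only CMs stood apart. *Slc36a2*, a proton-driven carrier of glycine and proline, was listed for CMs alone with 3.24 ± 0.13 log2 CPM in WT.

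**Figure D1:**
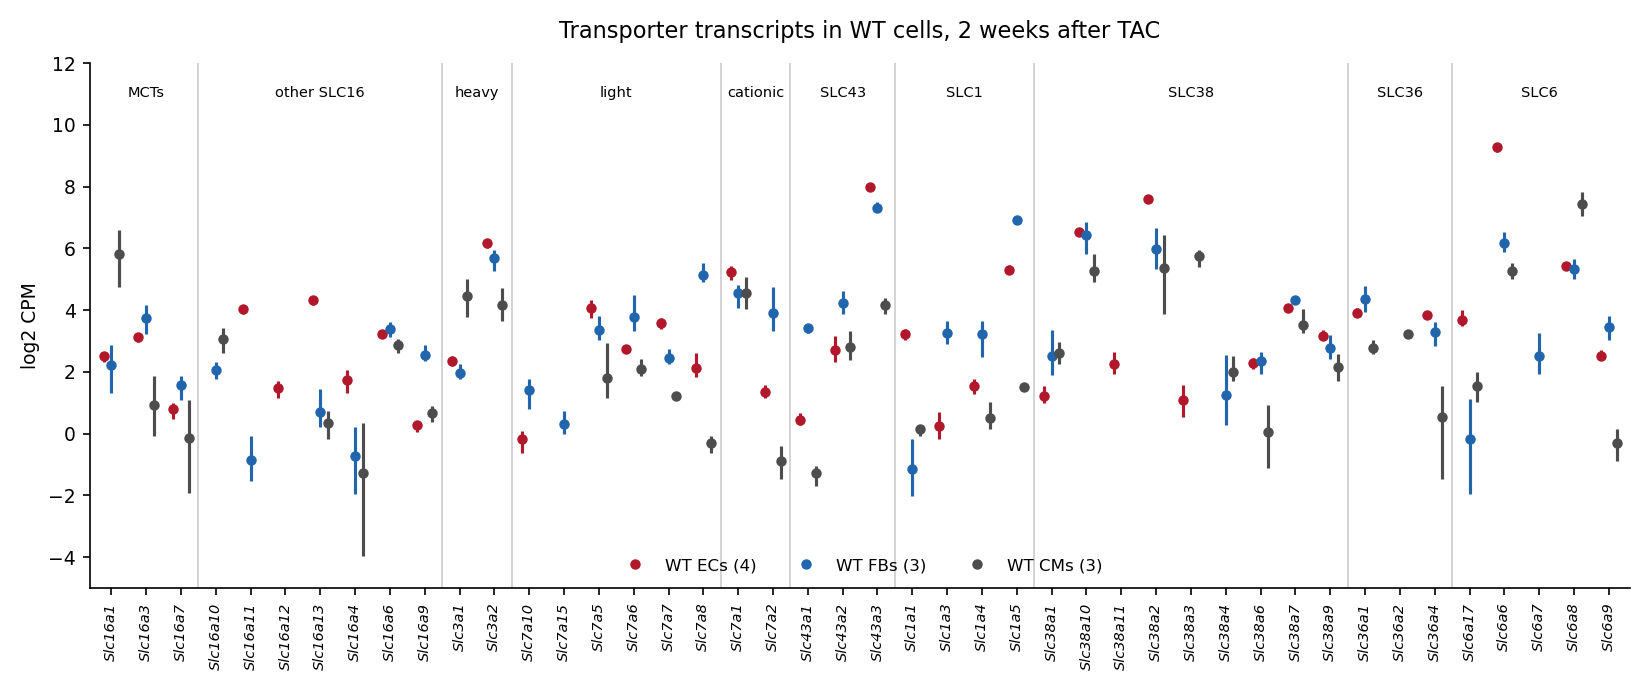
Levels of 44 of the 45 transporters in WT samples, in log2 CPM on the vertical axis, with the genes along the horizontal axis in groups by role. Points are means over 4 EC, 3 FB and 3 CM samples and bars run from the lowest to the highest sample; *Slc6a6* in ECs is the highest point at 9.28, and the highest CM point is *Slc6a8* at 7.45.

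In ECs, loss of *Gadlor* went with lower levels of 6 transporters and a higher level of 1. The lower genes comprised carriers of lactate and its relatives (*Slc16a1*, *Slc16a11*, *Slc16a13*), 2 SLC38 carriers (*Slc38a2*, *Slc38a11*) and the taurine carrier *Slc6a6*, with the smallest change in *Slc6a6*, which fell by 35.6%, and the largest in *Slc16a11*, which fell by 60.8%. The only gene that rose was *Slc7a10*, a light chain that carries D-serine and other small neutral amino acids, at a low level. Of all 13929 genes of the EC table, 5.31% were lower and 2.08% higher by the same rule, a Benjamini-Hochberg adjusted p from limma under 0.05 with a fold change above 1.5. Groups did not overlap in 12 of the 40 members, against 26.2% of all genes, and the median log2 fold change of the members was -0.003 against 0.03 over all genes.

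*Slc16a1* lay at 2.66, 2.47, 2.63 and 2.33 log2 CPM in the WT samples and at 1.88, 1.68, 1.49 and 1.23 in the *Gadlor*-KO samples. Every *Gadlor*-KO sample lay below every WT sample. The mean fell from 2.52 ± 0.15 to 1.57 ± 0.28 log2 CPM (SD, n = 4 per genotype; log2 fold change -0.95 with SE 0.15 and an adjusted p in limma of 0.0016). With log2(CPM + 5), which shrinks low levels, its log2 fold change was -0.43 and no longer passed the fold threshold (limma adjusted p = 0.0011). The other proton-linked carriers gave values of -0.01 (*Slc16a3*, limma adjusted p = 0.98) and 0.06 (*Slc16a7*, the pyruvate carrier MCT2, limma adjusted p = 0.88). *Bsg*, the chaperone that brings MCT1 and MCT4 to the cell surface, had a log2 fold change of 0.30, below the fold threshold.

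*Slc16a11*, a monocarboxylate carrier linked to lipid metabolism in human liver, showed the largest fall. Its WT samples read 4.09, 4.06, 3.89 and 4.07 log2 CPM and its *Gadlor*-KO samples 2.94, 2.32, 2.43 and 3.02 (log2 fold change -1.35 with SE 0.15 and an adjusted p in limma of 3.6e-04). The gap between the groups was wider than the whole spread of the WT samples. *Slc16a13*, a related carrier of the same family, read 4.43, 4.40, 4.16 and 4.35 log2 CPM in WT and 3.78, 3.38, 3.41 and 3.86 in *Gadlor*-KO ECs (log2 fold change -0.73 with SE 0.12 and an adjusted p in limma of 0.0023), again without overlap. Both genes lie on chromosome 11 (GENCODE vM21 on mm10), *Slc16a11* from 70212752 to 70216417 on the plus strand and *Slc16a13* from 70216789 to 70221064 on the minus strand, with their 3′ ends 371 bp apart. Libraries were stranded, but whether strand was used in counting was not given in the sources used here, so reads near these ends are of uncertain origin.

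Among the carriers of neutral amino acids, *Slc38a2* read 7.64, 7.48, 7.67 and 7.66 log2 CPM in WT against 6.76, 6.94, 6.82 and 6.96 in *Gadlor*-KO ECs. Both groups were tight and did not overlap (log2 fold change -0.74 with SE 0.07 and an adjusted p in limma of 8.8e-05). *Slc38a11*, an orphan carrier listed for ECs alone, read 2.33, 1.94, 2.64 and 2.08 log2 CPM in WT and 1.37, 1.41, 1.85 and 1.14 in *Gadlor*-KO ECs, with KO-131 just below the lowest WT sample (log2 fold change -0.80 with SE 0.18 and an adjusted p in limma of 0.013). The sodium-driven *Slc38a1*, a relative of *Slc38a2*, had a log2 fold change of 0.004 (limma adjusted p = 0.99), and the lysosomal *Slc38a9* one of 0.10 (limma adjusted p = 0.50).

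The taurine carrier *Slc6a6* read 9.29, 9.32, 9.41 and 9.12 log2 CPM in WT and 8.42, 8.37, 8.96 and 8.85 in *Gadlor*-KO ECs (log2 fold change -0.63 with SE 0.14 and an adjusted p in limma of 0.0099). All *Gadlor*-KO samples lay below WT, and KO-105 and KO-108 lay lowest. These were also the EC samples with the highest mitochondrial shares (12.7% and 20.4%, against 8.03% and 8.18% in KO-131 and KO-133 and 5.25% to 8.59% in WT). When CPM was rescaled without the mitochondrially encoded genes, *Slc6a6* kept its call. Beyond this scaling, the part of the mitochondrial share was not tested. Without KO-105 or KO-108 the log2 fold change of *Slc6a6* was -0.56 or -0.54, below the fold threshold, with adjusted p values from limma of 0.024 and 0.022. The vesicular carrier of neutral amino acids *Slc6a17* (log2 fold change -0.52, limma adjusted p = 0.018) and the carnitine carrier *Slc16a9* (0.53, limma adjusted p = 0.030) passed the p threshold without reaching the fold threshold. *Slc6a8* had a log2 fold change of -0.10 (limma adjusted p = 0.19).

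*Slc7a10* read 0.00, -0.64, -0.10 and 0.08 log2 CPM in WT and 0.58, 1.33, 0.48 and 0.36 in *Gadlor*-KO ECs (log2 fold change 0.85 with SE 0.25 and an adjusted p in limma of 0.037). KO-108 was the highest sample. The call was lost when WT-31, WT-32, WT-34, KO-105, KO-108 or KO-131 was left out, with adjusted p values of 0.050 to 0.089 in those fits, and 1088 bp of the gene overlap *Lrp3* on the other strand. The exchanger subunits *Slc3a2* and *Slc7a5* had log2 fold changes of 0.13 and 0.41 (limma adjusted p = 0.24 and 0.15), and the cationic carriers *Slc7a1* and *Slc7a2*, which supply arginine, of 0.36 and 0.06 (limma adjusted p = 0.12 and 0.82). *Slc1a5* had a log2 fold change of -0.17 (limma adjusted p = 0.12) and *Slc36a1* of -0.10 (limma adjusted p = 0.31).

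*Slc7a8* varied most among the *Gadlor*-KO ECs, with 2.19, 3.05, 0.32 and 0.87 log2 CPM in KO-105, KO-108, KO-131 and KO-133 against 1.83, 2.60, 1.87 and 2.21 in WT. The mean of 16 macrophage markers moved with it: it was 3.73 and 4.23 log2 CPM in KO-105 and KO-108, 2.19 and 2.20 in KO-131 and KO-133, and 3.60 to 4.36 in WT. The summed CPM of these markers spanned 721 to 801 in WT ECs, against 269 to 690 in the *Gadlor*-KO group. The log2 fold change of *Slc7a8* was -0.52 (limma adjusted p = 0.56), and 0.49 with the marker mean as a covariate. None of the 14 endothelial markers differed by genotype, while all 5 erythroid genes were lower in *Gadlor*-KO ECs, with a summed CPM of 417 to 693 in WT ECs, against 246 to 284 in the *Gadlor*-KO group. With the macrophage marker mean as a covariate the same 6 falls were called, and *Slc7a5* was called higher as well (log2 fold change 0.67, limma adjusted p = 0.028). KO-131 and KO-133, like WT-34 and WT-35, also had Y-linked genes near the lowest value (0.1 to 0.3 summed CPM, against 46.4 to 53.9 in the other EC samples), and the 7 calls were the same with the Y-linked genes as a covariate. The part of the erythroid genes was not tested.

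Of the genes that surround the carriers, those of the amino acid response gave 7 calls in ECs. ATF4 is the transcription factor that cells raise when amino acids are short, and of 16 measured genes of its response 6 fell and 1 rose (median log2 fold change -0.20). Against this and the counts that follow stand the 5.31% lower and 2.08% higher of all EC genes. *Ppp1r15a*, which restores translation, fell by 1.48 and *Ddit3*, a stress transcription factor, by 0.92 on the log2 scale, whereas *Ddit4*, an inhibitor of mTORC1, rose by 1.34. Among 25 genes of amino acid sensing at the lysosome 2 rose and 1 fell, with the arginine sensor *Castor1* up by 0.71 and the leucine sensor *Sesn2*, itself a stress-induced gene, at -0.62 on the log2 scale. *Odc1*, the first enzyme of polyamine synthesis, had a log2 fold change of -0.94 and was the only one of 9 genes of arginine and nitric oxide metabolism that was called. Of the enzymes of lactate and pyruvate (16 measured), of glutamine and glutamate (15) and of branched-chain amino acid breakdown (14), none was called by limma. Some passed the p threshold below the fold threshold, such as *Mpc1*, a subunit of the mitochondrial pyruvate carrier (log2 fold change -0.54, limma adjusted p = 0.012), and *Gclc*, which starts glutathione synthesis (-0.38, limma adjusted p = 0.0024).

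**Figure D2:**
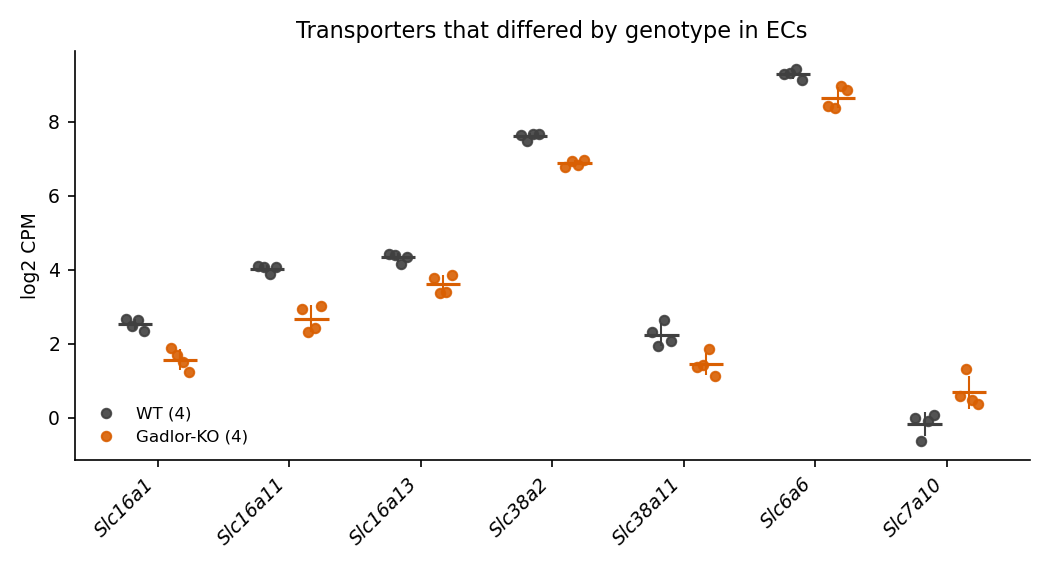
The 7 transporters that differed by genotype in ECs, in log2 CPM on the vertical axis, one column pair per gene. Points are samples (4 WT, 4 *Gadlor*-KO), the horizontal bar is the mean and the vertical bar 1 SD on each side; 6 genes lie lower and *Slc7a10* higher in *Gadlor*-KO samples, without overlap.

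In FBs, none of the 41 members passed the thresholds. Over all 13563 genes, 1 was higher (0.00737%) and 0 were lower (0%) by limma. Before adjustment, at p under 0.05 and the same fold, 4 members were higher, against 7.03% of all genes, and 3 were lower, against 4.38%. Groups did not overlap in 10 of 41 members, against 21.3% of all genes, and the median log2 fold change was -0.16 against 0.01 over all genes.

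The members named here for FBs without overlap were in part chosen after their values were seen. The 4 members with the higher *Gadlor*-KO values were *Slc16a11*, *Slc16a13*, *Slc6a6* and the glutamate carrier *Slc1a1*. *Slc16a11* read -0.06, -1.01 and -1.53 log2 CPM in WT-260, WT-277 and WT-283 and 1.11, 1.65 and 0.79 in the *Gadlor*-KO FBs (log2 fold change 2.05 with SE 0.49 and an adjusted p in limma of 0.17). *Slc6a6* read 6.55, 5.89 and 6.05 log2 CPM in WT and 7.78, 7.18 and 6.89 in *Gadlor*-KO FBs (log2 fold change 1.12 with SE 0.29 and an adjusted p in limma of 0.17). In both genes WT-260 was the WT sample closest to the *Gadlor*-KO group. *Slc16a13* and *Slc1a1* had log2 fold changes of 1.10 and 1.76 with adjusted p values from limma of 0.25 each, and WT-260 was again the highest WT sample.

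The endothelial markers moved with these values, and so did other lists. Their mean over 14 genes was 5.59, 1.40 and 2.82 log2 CPM in WT-260, WT-277 and WT-283 and 6.75, 6.57 and 6.14 in the *Gadlor*-KO FBs, and their summed CPM spanned 178 to 923 in WT FBs, against 1373 to 2380 in the *Gadlor*-KO group. The summed CPM of pericyte and smooth muscle markers was likewise higher in all *Gadlor*-KO FBs (273 to 365 in WT, 470.0 to 627 in *Gadlor*-KO), and that of epicardial markers lower (61.0 to 291 and 13.4 to 32.9). Over 14 fibroblast markers the log2 fold change was -0.79 at the median, with a summed CPM that overlapped (10603 to 29176 and 7931 to 12344). All 4 members had a higher WT mean in ECs than in FBs, as listed in the separate tables. Of the 6 members without overlap and with lower *Gadlor*-KO values 0 did, where *Slc38a4* was not listed for ECs and could not be compared. The WT FB samples enter both this order and the fold change. With the endothelial marker mean as a covariate 0 members passed in either direction, but this mean did not overlap between the genotypes, so that the covariate and the genotype can hardly be separated in 6 samples. The part of the markers in the values was not tested further.

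The 6 with lower values were *Slc38a4*, a carrier of neutral amino acids (log2 fold change -1.40), *Slc16a9* (-1.11), *Slc7a8* (-0.69), the neutral amino acid carrier *Slc43a2* (-0.54), *Slc1a5* (-0.41) and the lysosomal glutamine carrier *Slc38a7* (-0.33). *Slc7a8* read 4.91, 4.93 and 5.54 log2 CPM in WT and 4.02, 4.70 and 4.6 in *Gadlor*-KO FBs, so that the groups were separated by a narrow gap. *Slc1a5* read 6.90, 6.97 and 6.93 log2 CPM in WT and 6.86, 6.26 and 6.47 in *Gadlor*-KO FBs, with KO-240 next to the WT samples. The remaining carriers had values between -0.78 (*Slc38a1*) and 0.86 (*Slc16a4*), among them *Slc16a1* (-0.25), *Slc16a3* (-0.50), *Slc16a7* (-0.46), *Slc3a2* (0.21), *Slc7a5* (-0.03), *Slc7a1* (-0.11), *Slc7a2* (-0.54), *Slc38a2* (0.45), *Slc38a9* (0.38), *Slc36a1* (-0.43), *Slc6a8* (-0.18), *Slc43a3* (0.02) and *Slc38a10* (-0.59) as log2 fold changes, and the adjusted p from limma was 0.17 or more for every member.

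1 library decided the count. WT-260 had the smallest effective library size (15.04 M) and the largest mitochondrial share (73.6%) of the FB samples. Its cardiomyocyte markers summed to 597 CPM, against 22.7 and 45.1 in WT-277 and WT-283 and 215 to 395 in *Gadlor*-KO FBs. Erythroid genes summed to 1616 CPM in WT-260, against 11.9 and 287 in WT-277 and WT-283 and 163 to 414 in *Gadlor*-KO FBs. The part of these 2 lists was not tested. Without WT-260, *Slc16a11* (log2 fold change 2.45), *Slc1a1* (2.25), *Slc16a13* (1.49) and *Slc6a6* (1.31) were called higher and *Slc38a10* (-0.90) lower, with adjusted p values from limma of 0.014 to 0.042. In the same fit 6.10% of all genes were higher and 3.30% lower. The endothelial markers of the remaining WT samples were then still further below those of the *Gadlor*-KO samples. The mitochondrial share was 3.81% and 5.69% in WT-277 and WT-283 and 46.3% to 60.9% in the *Gadlor*-KO FBs, so that without WT-260 this share and the genotype cannot be told apart. Leaving out any other FB sample gave 0 calls among the members.

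**Figure D3:**
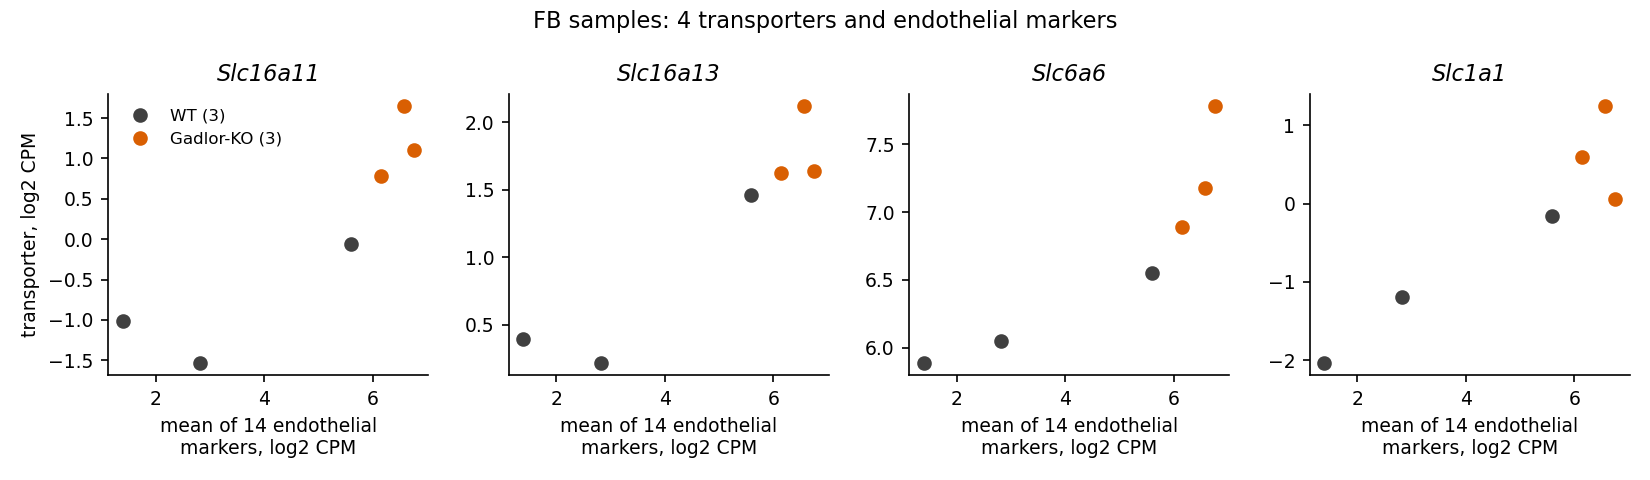
Panels with the level of *Slc16a11*, *Slc16a13*, *Slc6a6* and *Slc1a1* in the FB samples (log2 CPM, vertical axes) against the mean of 14 endothelial markers (log2 CPM, horizontal axes). Points are samples (3 WT, 3 *Gadlor*-KO); the *Gadlor*-KO samples lie at 6.14 to 6.75 on the marker axis, and WT-260, at 5.59, is the WT sample nearest to them.

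In CMs, the *Gadlor*-KO libraries held more of 9 transporters and less of 6. Among the carriers that fell were 3 that led in WT CMs, the creatine carrier *Slc6a8*, the lactate carrier *Slc16a1* and the glutamine carrier *Slc38a3*, whereas *Slc6a6* was the highest in WT of those that rose and others were low there, such as *Slc1a5*, *Slc7a8* and *Slc7a2*. Of all 13038 genes 21.3% were higher and 19.6% lower, so that the share of the members called was close to that of all genes. Groups did not overlap in 23 of 38 members, against 59.5% of all genes, and the median log2 fold change was 0.44 against 0.15 over all genes.

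Markers of other cells moved with the genotype. All 15 cardiomyocyte markers were lower in *Gadlor*-KO CMs, with a summed CPM of 33968 to 52754 in WT CMs, against 804 to 7399 in the *Gadlor*-KO group, and their mean was 5.54, 5.33 and 8.37 log2 CPM in KO-CM1, KO-CM2 and KO-CM3. All 14 endothelial markers were higher (summed CPM 290.0 to 521 in WT, 1175 to 2780 in *Gadlor*-KO), as were 13 of 14 fibroblast markers (103 to 192 and 2291 to 3026) and 15 of 16 macrophage markers (270.4 to 577 and 492 to 1421), with the remaining macrophage marker lower. The erythroid genes reached 15624 summed CPM in KO-CM1 against at most 102 in the other samples. The 6 epicardial markers summed to 6.03 to 13.6 CPM in WT and to 1047, 50.4 and 57.2 in KO-CM1, KO-CM2 and KO-CM3. The mitochondrial share given above did not overlap between the genotypes either. With the endothelial marker mean as a covariate 0 members and 0 of all genes passed, while the median log2 fold change of the members was 0.62 against 0.44 without it. This mean, too, did not overlap between the genotypes (3.49 to 4.58 log2 CPM in WT, 5.87 to 7.10 in *Gadlor*-KO), so the lost calls say little about the members. The part of other cells in the transporter values and the genotype cannot be told apart in these samples.

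Among the fuel carriers, *Slc6a8* read 7.49, 7.05 and 7.82 log2 CPM in WT-CM1, WT-CM2 and WT-CM6 and 4.37, 4.27 and 5.58 in KO-CM1, KO-CM2 and KO-CM3. KO-CM3, the *Gadlor*-KO sample with the highest cardiomyocyte markers, was the highest of its group, and all 3 lay below WT (log2 fold change -2.71 with SE 0.46 and an adjusted p in limma of 0.0068). *Slc16a1* read 6.60, 6.14 and 4.74 log2 CPM in WT and 4.37, 2.35 and 4.10 in *Gadlor*-KO CMs (log2 fold change -2.22 with SE 0.69 and an adjusted p in limma of 0.041). WT-CM6 and KO-CM1 differed by less than the spread of either group, and the call was lost without any one sample other than WT-CM6, with adjusted p values from limma of 0.055 to 0.12. *Slc16a3* read -0.08, 0.98 and 1.88 log2 CPM in WT and 3.37, 2.29 and 2.14 in *Gadlor*-KO CMs and did not pass (log2 fold change 1.68, limma adjusted p = 0.065). *Slc16a7* had the same mean of -0.14 log2 CPM in both genotypes. *Bsg*, the partner of MCT1, fell by 2.50.

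*Slc38a3* showed the largest fall, with 5.90, 5.40 and 5.96 log2 CPM in WT and -2.03, 0.62 and 3.62 in *Gadlor*-KO CMs. The *Gadlor*-KO samples were spread widely and KO-CM3 was highest (log2 fold change -5.02 with SE 1.29 and an adjusted p in limma of 0.021), and the call was lost without WT-CM1 or KO-CM2 (limma adjusted p = 0.061 and 0.068). *Slc36a2* read 3.36, 3.09 and 3.27 log2 CPM in WT and -2.03, -1.21 and 0.74 in *Gadlor*-KO CMs, again with KO-CM3 highest (log2 fold change -4.07 with SE 0.72 and an adjusted p in limma of 0.0074). The heavy chain *Slc3a1*, known from kidney, read 5.0, 4.62 and 3.79 log2 CPM in WT and 1.88, 1.5 and 2.90 in *Gadlor*-KO CMs (log2 fold change -2.38 with SE 0.49 and an adjusted p in limma of 0.010). In the annotation 767 bp of it overlap *Prepl* on the other strand, which leaves the origin of its reads uncertain. *Slc6a17* fell by 1.48 (limma adjusted p = 0.036) and lost its call without WT-CM1, KO-CM1, KO-CM2 or KO-CM3.

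Of the carriers that rose, *Slc1a5* read 1.47, 1.46 and 1.60 log2 CPM in WT and 5.91, 4.84 and 4.74 in *Gadlor*-KO CMs (log2 fold change 3.65 with SE 0.38 and an adjusted p in limma of 0.0045). The gap between the groups was wider than the spread of either. *Slc7a8* read -0.08, -0.63 and -0.22 log2 CPM in WT and 3.72, 2.59 and 2.55 in *Gadlor*-KO CMs (log2 fold change 3.26 with SE 0.46 and an adjusted p in limma of 0.0056). *Slc7a2*, a cationic carrier that takes up arginine, read -0.75, -0.41 and -1.47 log2 CPM in WT and 3.90, 1.43 and 1.63 in *Gadlor*-KO CMs (log2 fold change 3.2 with SE 0.74 and an adjusted p in limma of 0.015), and its call was lost with log2(CPM + 5) (limma adjusted p = 0.051). In these 3 genes KO-CM1 was the highest sample. It was also the highest *Gadlor*-KO sample for epicardial markers (7.11 log2 CPM on average, against 2.70 and 2.97 in KO-CM2 and KO-CM3), macrophage markers (5.51 against 4.07 and 4.18) and erythroid genes, and the lowest for fibroblast markers (5.86 against 6.98 and 6.70).

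*Slc43a1*, a carrier of large neutral amino acids, rose by 3.0 on the log2 scale with KO-CM1 highest, and *Slc6a9*, the glycine carrier, by 1.80, a call that was lost without WT-CM2, KO-CM2 or KO-CM3. In the annotation *Slc6a9* overlaps *Ccdc24* (6034 bp) and *B4galt2* (5939 bp) on the other strand, so the origin of its reads is uncertain. *Slc43a3* read 4.40, 4.26 and 3.87 log2 CPM in WT and 5.82, 6.92 and 6.89 in *Gadlor*-KO CMs (log2 fold change 2.36 with SE 0.39 and an adjusted p in limma of 0.0067). Here KO-CM1 was the lowest *Gadlor*-KO sample, as it was for the endothelial markers (5.87 log2 CPM on average, against 7.10 and 6.82). The same held for the fibroblast markers (5.86 against 6.98 and 6.70) and the pericyte and smooth muscle markers (3.38 against 5.37 and 5.46). The taurine carrier *Slc6a6* read 5.54, 5.25 and 5.02 log2 CPM in WT and 6.49, 6.8 and 6.57 in *Gadlor*-KO CMs (log2 fold change 1.35 with SE 0.30 and an adjusted p in limma of 0.013), without overlap, and lost its call without KO-CM2 (limma adjusted p = 0.061). *Slc7a7* rose by 1.13 (limma adjusted p = 0.027) and lost its call without any one sample other than WT-CM6. It overlaps *Oxa1l* on the other strand by 232 bp. *Slc16a1*, *Slc6a6* and *Slc7a2* overlap other annotated genes too, none of them listed as protein-coding.

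All 9 genes that rose had a lower WT mean in CMs than in ECs and in FBs, as did 17 of the 23 members that were not called. Of the 6 that fell, 4 had a higher WT mean in CMs than in any other cell type they were listed for, *Slc36a2* was listed for CMs alone and *Slc6a17* lay below its EC level. These WT CM samples enter both the order and the fold change. Among the members not called, *Slc3a2* (log2 fold change 0.87, limma adjusted p = 0.082) had groups without overlap, while *Slc7a5* (0.50), *Slc38a10* (0.39), *Slc36a1* (0.35), *Slc38a9* (-0.01), *Slc38a1* (-0.07), *Slc38a2* (-0.13) and *Slc7a1* (-0.56) overlapped, with adjusted p values from limma of 0.28 to 0.99. *Slc38a2* read 6.43, 5.80 and 3.88 log2 CPM in WT, so that WT-CM6 lay below all *Gadlor*-KO samples.

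The scaling shifted the balance of calls. When CPM was rescaled without the mitochondrially encoded genes, the median over all genes moved by 0.73 on the log2 scale, and 19 members were higher and 4 lower, against 33.7% and 11.5% of all genes. All 9 rises kept their call under this scaling, while the falls of *Slc16a1* (log2 fold change -1.48) and *Slc6a17* (-0.75) did not. Without WT-CM6, 14 members were higher and 6 lower, against 26.3% and 27.8% of all genes. Without KO-CM2 or WT-CM1, 3 were lower, against 10.5% and 12.8% of all genes.

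Many genes of energy and amino acid metabolism were lower in the same samples, in which all 15 cardiomyocyte markers were lower too. Of 17 measured enzymes and carriers of lactate and pyruvate 13 fell and 1 rose (median log2 fold change -2.50), among them *Ldhb*, the lactate dehydrogenase subunit of heart (-4.06), and the pyruvate dehydrogenase genes *Pdhb* (-3.37) and *Pdhx* (-3.30). Of 14 genes of branched-chain amino acid breakdown 9 fell and none rose (median -2.21), and of 15 genes of glutamine and glutamate metabolism 8 fell and 1 rose (median -1.33). The creatine kinases *Ckmt2* and *Ckm* fell by 4.93 and 4.43 beside their creatine carrier, whereas *Gatm*, which makes the precursor of creatine, rose by 3.30. Of 8 genes of arginine and nitric oxide 4 rose, with the endothelial synthase *Nos3* up by 2.63, together with the arginine carrier *Slc7a2*. Of 25 genes of lysosomal amino acid sensing 10 fell and 1 rose, the latter being *Castor1* (2.51). The thyroid hormone activating enzyme *Dio2* rose by 3.40, and 1 of 5 measured genes of that list was called. Against these counts stand the 21.3% and 19.6% of all genes given above. Between the same groups, cardiomyocyte markers moved by -4.32 at their median and endothelial ones by 2.66, on the log2 scale. Whether the values of these metabolic genes followed the share of cardiomyocytes and other cells was not tested.

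**Figure D4:**
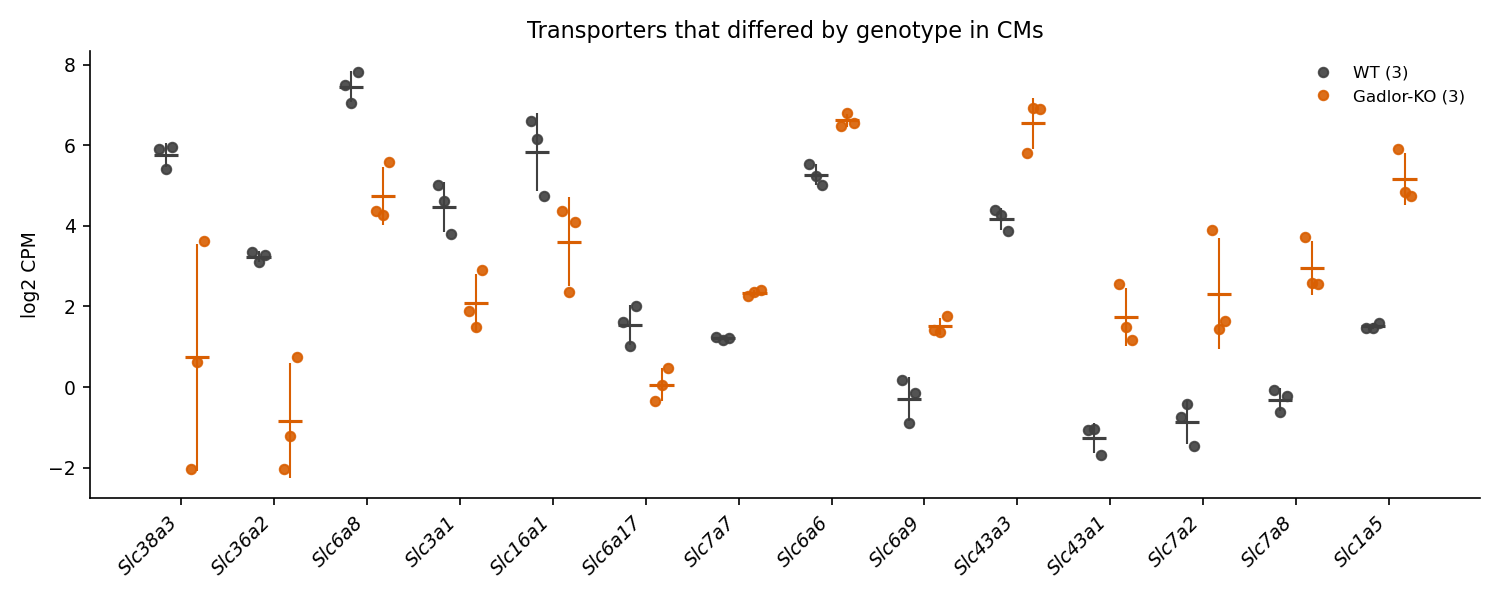
Of the 15 transporters that differed by genotype in CMs, 14 are plotted, in log2 CPM on the vertical axis, ordered from the largest fall to the largest rise. Points are samples (3 WT, 3 *Gadlor*-KO), the horizontal bar is the mean and the vertical bar 1 SD on each side; the groups do not overlap in any of the 14, and the *Gadlor*-KO samples of *Slc38a3* range from -2.03 to 3.62.

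Between cell types, *Slc16a1* was lower in *Gadlor*-KO samples of both ECs and CMs, and *Slc6a6* was lower in ECs and higher in CMs. The genotype difference itself was compared with limma on the 12157 genes listed in all 3 tables. Between ECs and FBs it differed for 2 of 34 members, against 2.43% of all genes: *Slc6a6* (EC minus FB -1.75, SE 0.31, adjusted p = 0.0079) and *Slc16a13* (-1.83, SE 0.46, adjusted p = 0.047). Both had a negative log2 fold change in ECs and a positive one in FBs. *Slc16a11* was not listed for CMs and did not enter this fit, and its log2 fold changes were -1.35 in ECs and 2.05 in FBs. In ECs no endothelial marker differed, whereas in FBs the endothelial markers were higher in all *Gadlor*-KO samples, and the part of this in the differences was not tested.

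Between ECs and CMs the genotype difference was unequal for 18 of 34 members, against 53.4% of all genes, and between FBs and CMs for 18 of 34, against 47.5%. Neither share stood out from that of all genes. *Slc1a5* gave the smallest adjusted p of the members between ECs and CMs (EC minus CM -3.82 with SE 0.31 and an adjusted p in limma of 2.7e-07), with log2 fold changes of -0.17 in ECs, -0.41 in FBs and 3.65 in CMs. For *Slc6a8* (EC minus CM 2.61, SE 0.36) the values were -0.10, -0.18 and -2.71. The joint fit shares its spread over 6 groups, although the spread differed between cell types. For *Slc1a5* and *Slc6a8* its SEs lay below those of the CM difference alone (0.38 and 0.46). The p-values of differences from CMs can thus be too small. For *Slc16a1* the EC and CM differences of -0.95 and -2.22 were not shown to differ (EC minus CM 1.27 with SE 0.67 and an adjusted p in limma of 0.12). The lysosomal *Slc38a9* and the light chain *Slc7a5* were not called in any cell type, and neither was shown to differ between ECs and CMs (EC minus CM 0.11, SE 0.32, and -0.08, SE 0.50).

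**Figure D5:**
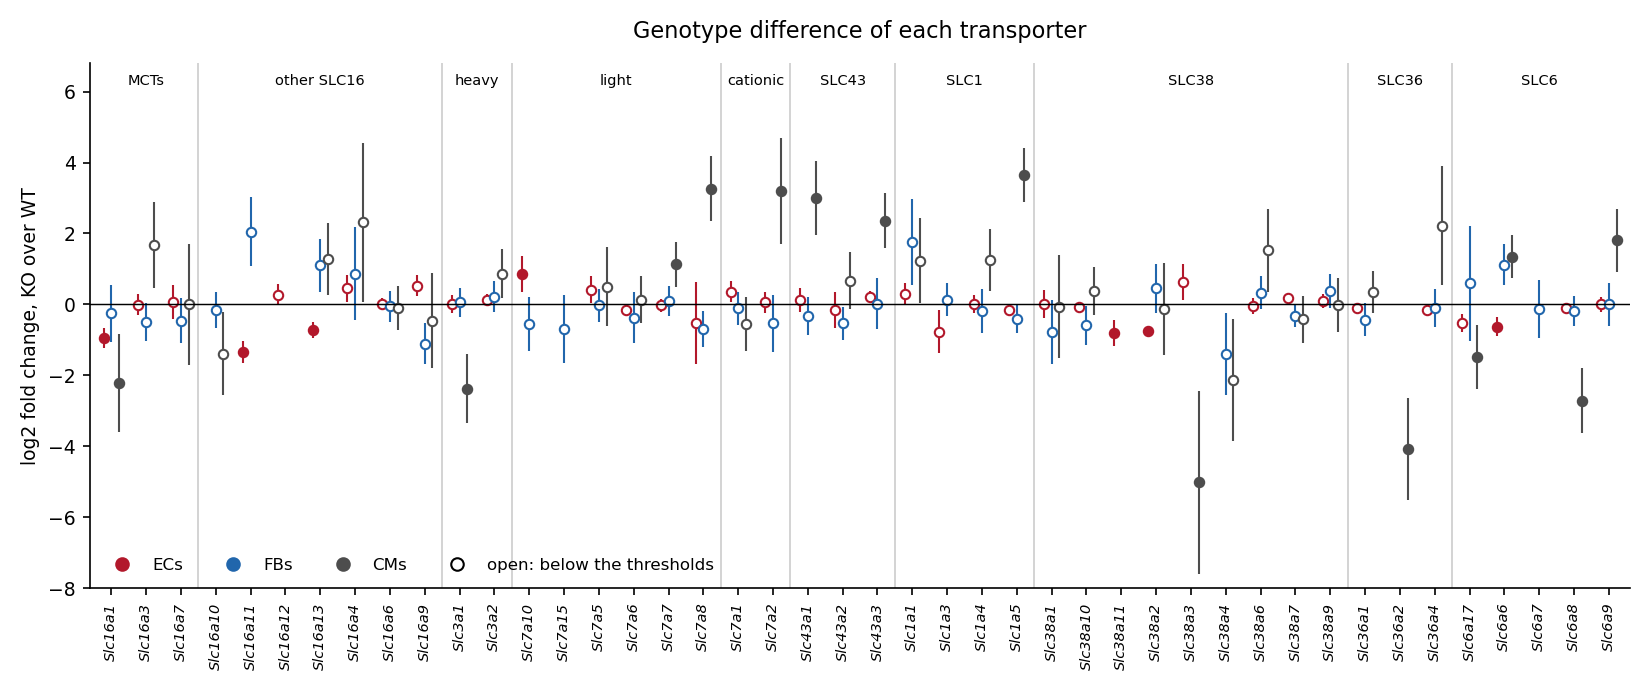
Genotype difference, *Gadlor*-KO over WT on the log2 scale (vertical axis), for 44 of the 45 transporters (horizontal axis, grouped by role) in ECs, FBs and CMs. Vertical bars are 2 SE from limma on each side, filled points passed both thresholds and open points did not; the filled points are 7 in ECs, 0 in FBs and 14 in CMs.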

How the data were processed

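RNA-seq of 20 samples was analysed, from libraries that keep strand and reads of 50 bases. Per the submitters' notes, reads were processed with Bowtie2 and DESeq2 on mm10, and the versions and the use of strand in counting were not given in the sources used here. The methods of the study name edgeR, and not DESeq2, for differential expression. The authors deposited one table per cell type with log2 CPM per transcript and sample. Each table was normalized separately, so tests were made within tables. The deposited columns of the authors' own comparison (log2 fold change, mean log2 CPM, a likelihood ratio score, p-value and false discovery rate) were not used. There are 0 columns of other samples. *Gadlor1* and *Gadlor2* were not analysed here.

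For each gene and table the transcript with the highest mean was taken, after 0.414% to 0.440% of rows without a gene name were left out. Genotypes were compared with limma 3.58.1 (trend and robust options, statmod 1.5.0, R 4.3.3) across all genes of a table, with Benjamini-Hochberg adjustment, and calls needed both an adjusted p under 0.05 and a fold above 1.5. Values were used as deposited and no further pseudocount was added. They have a finite lowest value, of -5.62 log2 CPM in ECs, -5.19 in FBs and -3.97 in CMs. Fold changes of low members can depend on it. Cell types were compared by the interaction term of a joint limma fit that shares one spread over 6 groups. The script was tested on simulated data. Depth, as effective library size, was read from the step between low values, which were whole reads within 0.1 read. It covers counting error only. Positions follow GENCODE release 21 (mouse).

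Named members were those called, the 5 highest in WT, 15 carriers of a fixed list, and those called in more than one cell type, and up to 3 genes with the smallest adjusted p per pathway list and cell type. Of the members, 1 is included in all counts and medians but is not reported here. The members and lists were chosen with earlier results of these data known. Alternatives were other thresholds, a filter on low values, log2(CPM + 1) and log2(CPM + 5), median centring, scaling without mitochondrially encoded genes, the mean over transcripts, plain limma, marker covariates, a replicate block and leaving out each sample of a table. The alternatives of the joint fit, which left out WT-260 or WT-CM6 alone, were chosen after seeing the data.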

Additional observations from a re-analysis of the deposited data

Results flagged for a closer look

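Of 42 groups of 4 EC samples, 3 held a sample far from the other 3, where chance gives about 1 in 20. These were *Slc16a11* in WT-34 (3.891 log2 CPM, low), *Slc16a3* in WT-31 (2.961, low) and *Slc38a2* in WT-32 (7.481, low), and the calls of *Slc16a11* and *Slc38a2* held without these samples.

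The interaction term of the joint limma fit showed an unequal genotype difference for 2 of 34 members between ECs and FBs, 18 between ECs and CMs and 18 between FBs and CMs, and all are given here but for the member that is not reported. Values are the log2 fold change in the first cell type minus that in the second. Between ECs and FBs these were *Slc6a6* (-1.753) and *Slc16a13* (-1.827). Between ECs and CMs the difference was negative for *Slc1a5* (-3.816), *Slc7a8* (-3.782), *Slc7a2* (-3.144), *Slc43a1* (-2.874), *Slc36a4* (-2.376), *Slc43a3* (-2.148), *Slc16a13* (-1.998), *Slc6a6* (-1.984), *Slc6a9* (-1.802), *Slc16a3* (-1.685), *Slc38a6* (-1.571), *Slc1a4* (-1.245), *Slc7a7* (-1.158) and *Slc3a2* (-0.7353), and positive for *Slc6a8* (2.612), *Slc3a1* (2.397) and *Slc7a1* (0.919).

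Between FBs and CMs the difference was negative for *Slc1a5* (-4.055), *Slc7a8* (-3.952), *Slc7a2* (-3.736), *Slc43a1* (-3.34), *Slc43a3* (-2.341), *Slc36a4* (-2.304), *Slc16a3* (-2.179), *Slc6a9* (-1.803), *Slc1a4* (-1.437), *Slc43a2* (-1.205), *Slc7a7* (-1.033), *Slc38a10* (-0.9774) and *Slc36a1* (-0.7807), and positive for *Slc6a8* (2.532), *Slc3a1* (2.434), *Slc6a17* (2.079) and *Slc16a1* (1.966). The CM samples enter all differences from CMs, and their marker levels by genotype are given in the report. The joint fit shares its spread over 6 groups, so the p-values behind these differences can be too small.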

How the results depend on the processing

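In ECs, 2 members were higher without a fold threshold, at a fold of 1.2 and with the macrophage covariate, 0 were higher with log2(CPM + 1) or log2(CPM + 5), and 3 were lower with log2(CPM + 5), where *Slc16a1* (-0.43), *Slc16a13* (-0.55), *Slc38a11* (-0.34) and *Slc7a10* (0.17) lost their calls. Leaving out 1 EC sample gave 0 to 1 higher and 5 to 7 lower, against 1.65% to 2.41% and 4.63% to 5.71% of all genes. Leaving out 1 FB sample gave 0 to 4 higher and 0 to 1 lower, the highest without WT-260. The shares of all genes were then 0% to 6.10% and 0% to 3.30%. In CMs, 19 were higher without mitochondrially encoded genes, against 33.7% of all genes. With the endothelial covariate 0 were higher and 0 lower, against 0% of all genes. Leaving out 1 CM sample gave 6 to 14 higher and 3 to 6 lower, against 12.4% to 26.3% and 10.5% to 27.8% of all genes. With log2(CPM + 5), 8 were higher and 5 lower in CMs, against 18.6% and 18.0% of all genes. There *Slc6a9* (0.43), *Slc6a17* (-0.40), *Slc7a2* (0.95) and *Slc7a7* (0.46) lost their calls. The replicate block on CM samples 1 and 2 gave 15 higher and 7 lower, against 24.5% and 27.5% of all genes. The labels give those samples no link beyond the number. Their deviations correlated at 0.051 and 0.077, and those of samples with unlike numbers at -0.22 to 0.15. With 3 samples per genotype this cannot decide whether the samples were paired. Median centring left 1 difference between ECs and FBs. In the joint fit WT-260 and WT-CM6 alone were left out, each in turn, which gave 2 to 2 such differences, 18 to 22 between ECs and CMs and 17 to 20 between FBs and CMs. The cause was not tested.

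Values that turned direction all belonged to members that were not called. In ECs, *Slc16a3* was at 0.0018 (log2(CPM + 5)), 0.034 (without mitochondrially encoded genes), 0.0063 (mean over transcripts) and 0.097 (macrophage covariate), and *Slc7a8* at 0.49 (macrophage covariate). In FBs, *Slc43a3* was at -0.041 with median centring, and without mitochondrially encoded genes *Slc7a1* was at 0.027 and *Slc7a5* at 0.11. The endothelial covariate in FBs gave *Slc16a1* 0.98, *Slc16a3* 0.25, *Slc38a1* 0.026, *Slc38a10* 0.20, *Slc38a9* -0.12, *Slc6a8* 0.27, *Slc7a1* 0.46, *Slc7a2* 0.38 and *Slc7a5* 0.20. In CMs, *Slc38a1* was at 0.073 (log2(CPM + 5)) and 3.14 (endothelial covariate), and without mitochondrially encoded genes *Slc16a7* was at 0.74, *Slc38a1* at 0.67, *Slc38a2* at 0.61, *Slc38a9* at 0.73 and *Slc7a1* at 0.18.

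Leaving out 1 sample moved these log2 fold changes across 0. The ranges in ECs were -0.12 to 0.14 (*Slc16a3*), -0.14 to 0.27 (*Slc16a7*), -0.14 to 0.15 (*Slc38a1*) and -0.036 to 0.13 (*Slc7a2*). In FBs they were -0.72 to 0.065 (*Slc16a1*), -0.0076 to 0.34 (*Slc3a2*), -0.41 to 0.26 (*Slc43a3*), -0.35 to 0.020 (*Slc7a1*) and -0.18 to 0.20 (*Slc7a5*). In CMs they were -0.89 to 0.62 (*Slc16a7*), -0.88 to 0.56 (*Slc38a1*), -0.87 to 0.40 (*Slc38a2*) and -0.25 to 0.20 (*Slc38a9*). The part of depth in these values was not tested.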
